A study of Mus musculus with 18 samples.

Results

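Expression of 10 Notch pathway genes was followed through the series, namely the receptors Notch1, Notch2 and Notch3, the ligands Dll1, Dll3, Jag1 and Jag2, and the target genes Hes1, Hes5 and Hey1. They were taken by gene symbol, and all 10 of 10 were present among the 32941 genes of each of the 4 deposited tables. The files held 18 mouse RNA-seq libraries. Wild-type (WT) brain was sampled once at each of the embryonic days E11, E12, E13, E14, E16 and E18. Cultured primary neural stem cells carried a short hairpin against Pex7 (NSC-Pex7sh, genotype PEX7-knockdown) or a scrambled hairpin (NSC-Scramble, WT). Samples labelled brain overexpressed PLAAT3-PEX11 (PLA1) or were WT (Ctrl1) in a first set. A set with neuron in its sample names likewise held PLAAT3-PEX11 overexpression (Neuron-PLA) and WT (Neuron-ctrl) samples, also labelled brain. Each of these 6 groups had 2 libraries. The labels give neither the age of the cells and overexpression samples, nor the promoter, vector or PEX11 isoform used, nor how neurons were obtained. The series' design mentions cortical tissue and triplicate libraries, whereas 1 library per stage, labelled brain, was analysed here. Nothing in the labels states that the paired libraries came from separate animals or cultures, so their spread may be technical.

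Notch signalling passes between touching cells. A ligand of the Delta (Dll) or Jagged (Jag) family on one cell binds a Notch receptor on its neighbour, the receptor is cut by ADAM proteases and by gamma-secretase, and its freed intracellular domain joins the DNA-binding protein RBPJ and the co-activator MAML to switch on Hes and Hey genes. In the embryonic cortex, Hes1 and Hes5 proteins repress proneural genes and keep radial glia as progenitors, while newly forming neurons express Delta ligands under the control of proneural factors such as Neurog2. Dll3 differs from the other ligands in that its protein stays largely inside the cell and does not activate receptors on neighbours.

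The promoters of the members were searched for motifs of this loop, because Hes genes are direct RBPJ targets and Delta genes are direct proneural targets. The motifs were the RBPJ core TGGGAA and the E-box CAGCTG, each on both strands, and the 2 motifs do not overlap in the promoters shown. RefSeq promoters (GRCm38.p6, 250 bases before to 50 bases after the start site) matched 8 of the 10 members, with 9 promoters, since Dll1 has 2. Of all 32851 mouse promoters of the same length, 25.6% held the RBPJ core and 16.3% held CAGCTG. The 4 promoters with a match are printed below, 5′ to 3′ on the strand of the gene, with the matches in capitals.
Hes5 promoter, chr4:154960673-154960972, plus strand: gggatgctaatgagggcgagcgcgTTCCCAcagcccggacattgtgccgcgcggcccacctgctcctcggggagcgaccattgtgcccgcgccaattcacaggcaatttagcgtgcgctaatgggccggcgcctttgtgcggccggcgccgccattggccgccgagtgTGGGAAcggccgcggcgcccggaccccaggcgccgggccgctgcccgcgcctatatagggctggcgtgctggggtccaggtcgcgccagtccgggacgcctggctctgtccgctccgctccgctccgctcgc
Dll1 promoter, chr17:15376883-15377182, minus strand: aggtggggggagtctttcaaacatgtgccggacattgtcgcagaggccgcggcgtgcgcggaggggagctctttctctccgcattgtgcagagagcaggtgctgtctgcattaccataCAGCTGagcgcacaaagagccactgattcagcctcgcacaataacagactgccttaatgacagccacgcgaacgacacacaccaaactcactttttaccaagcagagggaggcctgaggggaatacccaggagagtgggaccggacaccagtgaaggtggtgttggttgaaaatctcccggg
Dll3 promoter, chr7:28301736-28302035, minus strand: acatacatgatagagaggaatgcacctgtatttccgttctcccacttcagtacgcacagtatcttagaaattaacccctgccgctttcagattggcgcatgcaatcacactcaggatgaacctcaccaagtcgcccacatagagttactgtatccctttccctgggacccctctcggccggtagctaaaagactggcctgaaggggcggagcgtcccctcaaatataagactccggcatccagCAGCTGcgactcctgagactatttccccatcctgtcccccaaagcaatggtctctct
Jag1 promoter, chr2:137116471-137116770, minus strand: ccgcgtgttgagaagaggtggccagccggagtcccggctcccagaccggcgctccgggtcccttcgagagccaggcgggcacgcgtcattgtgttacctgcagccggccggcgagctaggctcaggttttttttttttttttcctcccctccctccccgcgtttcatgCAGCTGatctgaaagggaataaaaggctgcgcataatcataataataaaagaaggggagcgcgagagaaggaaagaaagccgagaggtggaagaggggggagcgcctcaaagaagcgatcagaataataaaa
The Hes5 promoter held 2 RBPJ cores, one on the opposite strand (TTCCCA) starting 226 bases before the start site and one on the strand of the gene (TGGGAA) starting 82 bases before it. Both lie in the 250 bases before the start site, and their part in the level of Hes5 was not tested. The E-box of the printed Dll1 promoter started 132 bases before the start site, that of Jag1 82 bases before it and that of Dll3 7 bases before it. Neither motif's letters occurred in the windows of Jag2, Notch1, Notch2, Notch3 and the other Dll1 promoter. These are matches of letters and were not tested as binding sites.

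Values are RPKM, reads divided by exon length and by library size, so levels can be compared between genes. The library totals used to turn RPKM back into reads were 41501880 to 54373317 for the 6 stage libraries and 16147911 to 28104927 for the 12 perturbation libraries. The targeted genes were read first. Pex7 was at 0.500 and 0.669 RPKM in Pex7sh cells, against 1.19 and 1.22 RPKM in scramble cells. Plaat3 was at 31.4 and 29.1 RPKM in PLA1, against 0.413 and 0.431 RPKM in Ctrl1, and at 19.0 and 20.8 RPKM in Neuron-PLA, against 0.0699 and 0.230 RPKM in Neuron-ctrl. Lists of cell-type markers were summed per library. Pan-neuronal markers (10 genes) summed to 1630 to 1750 RPKM in Neuron-PLA and 1680 to 1690 RPKM in Neuron-ctrl, and radial glia markers (10 genes) to 1130 to 1150 RPKM in Pex7sh cells and 913 to 1270 RPKM in scramble cells. The defining markers of both labels were thus present, but neither was pure. Neuron-set libraries also held microglia and astrocyte markers. The stem cells also held pan-neuronal markers at 814 to 1070 RPKM, above the 394 to 767 RPKM of PLA1 and Ctrl1, together with oligodendrocyte lineage and choroid plexus markers. Because these are bulk samples, fewer cells of a type and less RNA per cell cannot be told apart.

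Across brain development, 8 of the 10 members fell from E11 to E18 and Jag2 alone rose. The falling genes were both Delta ligands, Jag1, Notch1, Notch3 and the 3 targets. The level at E18 divided by that at E11 was lowest for Hes1 at 0.119 and highest among the falling genes for Hey1 at 0.301, while Jag2 reached 4.93 times its E11 level. A fall passed the test for 25.5% of all 12921 genes tested and a rise for 19.6% (limma slope on embryonic day, Benjamini-Hochberg adjusted p under 0.05). The median slope of the 10 members was -0.275 log2(RPKM + 1) per day, against -0.019 over all genes tested. With 1 library per stage, the error of a slope is the scatter around the line.

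Among the ligands, Dll1 (mm10 chr17:15367354-15376872, minus strand), the main activating Delta ligand of cortical progenitors, was at 29.9, 27.1, 19.0, 20.5, 9.92 and 5.19 RPKM at E11, E12, E13, E14, E16 and E18. Its slope was -0.34 log2 units per day (SE 0.03, limma adjusted p = 0.000668). Dll1 levels at E13 and E14 stood close together, between falls from E12 to E13 and from E14 to E16. Dll3 (chr7:28293553-28302238, minus strand) followed at 21.4, 16.5, 13.7, 16.4, 6.41 and 4.19 RPKM over the same stages, with a slope of -0.30 (SE 0.04, adjusted p = 0.00127). Both Delta ligands had a small second high at E14, and Dll1 was above Dll3 at every stage, by 1.24 to 1.64 times.

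The Jagged ligands ran in opposite directions. Jag1 (chr2:137081456-137116644, minus strand), which also patterns the inner ear and blood vessels, was at 3.95, 3.57, 1.93, 1.74, 1.75 and 0.944 RPKM from E11 to E18. Jag2 (chr12:112907819-112929776, minus strand), known for limb and craniofacial development, was at 3.10, 4.67, 5.78, 5.46, 9.79 and 15.3 RPKM. At E11 Jag1 stood above Jag2, and from E12 on Jag2 stood above Jag1. The ratio of Jag2 to Jag1 was 0.783, 1.31, 2.99, 3.14, 5.60 and 16.2 over the 6 stages. The slope of Jag2 was 0.27 (SE 0.03, adjusted p = 0.000697) and that of Jag1 -0.18 (SE 0.04, adjusted p = 0.00609). The call for Jag1 rested on the E18 library, without which its slope was -0.19 with an adjusted p of 0.0576.

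The receptors did not all fall in step. Notch1 (chr2:26457903-26516663, minus strand), the main receptor of radial glia, was at 15.4, 14.4, 10.7, 10.5, 6.51 and 2.52 RPKM from E11 to E18. Notch3 (chr17:32120820-32166852, minus strand), known best from vascular mural cells and also present in neural progenitors, was at 10.9, 11.0, 6.68, 7.38, 3.55 and 3.05 RPKM. Both were highest in the first 2 stages and then fell, with slopes of -0.31 for Notch1 (SE 0.03, adjusted p = 0.000919) and -0.25 for Notch3 (SE 0.03, adjusted p = 0.00142). Notch2 (chr3:98013527-98150361, plus strand) had its peak in mid-gestation, at 3.26, 4.75, 5.14, 5.41, 3.88 and 1.44 RPKM. Its slope of -0.12 (SE 0.06) did not pass the test (adjusted p = 0.135). Without E18 the slope of Notch2 was 0.03 (adjusted p = 0.759), and without E11 it was -0.21 (adjusted p = 0.0244). At E11 Notch1 was 4.71 times Notch2, and from E14 on the ratio was 1.94 or lower.

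Among the targets, Hes5 stood far above Hes1 and Hey1. Hes5 (chr4:154960923-154962371, plus strand), a repressor of proneural genes, was at 119, 69.5, 44.5, 47.8, 18.1 and 21 RPKM from E11 to E18, and was the highest member at every stage. Hes1 (chr16:30064384-30067796, plus strand), its partner in radial glia, was at 28.6, 18.9, 16.3, 20.8, 8.32 and 3.39 RPKM. Hey1 (chr3:8663359-8667256, minus strand), a related repressor, was at 21.2, 19.5, 16.8, 18.6, 8.19 and 6.39 RPKM. All 3 had a small second high at E14 and dropped between E14 and E16. The slopes were -0.36 for Hes5 (SE 0.06, adjusted p = 0.0025), -0.37 for Hes1 (SE 0.05, adjusted p = 0.00156) and -0.25 for Hey1 (SE 0.04, adjusted p = 0.00189). Hes5 was higher at E18 than at E16 while Hes1 went on falling, so that the ratio of Hes5 to Hes1 was 2.18 at E16 and 6.19 at E18.

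Grouped by role, the 3 receptors summed to 29.6 RPKM at E11 and 7.0 RPKM at E18, the 2 Delta ligands to 51.3 and 9.38 RPKM, the 2 Jagged ligands to 7.05 and 16.2 RPKM, and the 3 targets to 169 and 30.8 RPKM. At E11 Delta transcripts exceeded Jagged transcripts, and at E18 Jagged transcripts exceeded Delta transcripts. Counting error was small, since each value rested on 299 to 11450 reads. Poisson 95% intervals of neighbouring stages overlapped for Notch1 at E13 and E14, for Notch3 at E11 and E12, for Jag2 at E13 and E14, for Notch2 from E12 to E14, and for Jag1 in 3 neighbouring pairs. The other neighbouring stages differed by more than counting error, which does not include the variation between embryos.

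**Figure D1:**
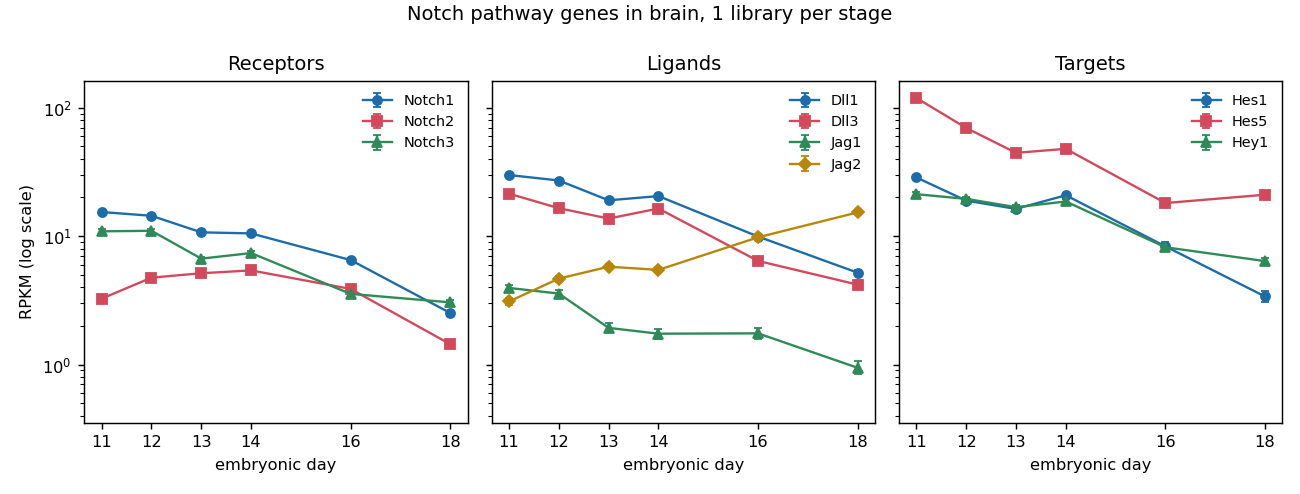
RPKM (log scale) of the 3 receptors, 4 ligands and 3 targets against embryonic day, 1 library per stage. Bars are Poisson 95% intervals of the reads. Jag2 climbs to 15.3 RPKM at E18 while Jag1 falls to 0.944 RPKM, Notch2 peaks at 5.41 RPKM at E14, and Hes5 lies above the other members throughout.

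Cell-type markers moved over the same stages. The 10 proliferation markers summed to 641, 480, 328, 350, 167 and 48.8 RPKM from E11 to E18, and 10 of 10 fell. Their sum, like Hes1, Hes5, Hey1 and the Delta ligands, was a little higher at E14 than at E13. Radial glia markers summed to 951 RPKM at E11 and 699 RPKM at E18, with 5 of 10 falling and 1 rising. Pan-neuronal markers summed to 1010 and 2840 RPKM, with 7 of 10 rising. Endothelial markers summed to 32.0 and 58.4 RPKM (3 of 7 tested rose), and pericyte markers to 7.20 and 25.4 RPKM (4 of 5 tested rose). Intermediate progenitor markers summed to 252, 296, 325, 398, 228 and 48.4 RPKM (3 of 7 fell), with their peak at E14, the stage at which the Delta ligands had their second high. Astrocyte markers summed to 38.3 RPKM at E16 and 159 RPKM at E18, the interval in which Hes5 was higher at the later stage, and 3 of 5 tested rose and 1 fell over all stages. Of the microglia markers 6 of 8 tested rose, and of the interneuron and ventral forebrain markers 5 of 8 fell. The share of the member changes that goes with these lists was not tested. The E11 library also held more meningeal marker RNA, at 25.8 RPKM against 1.90 to 4.46 RPKM later, and the E11 and E18 libraries held choroid plexus markers at 70.3 and 109 RPKM, against 1.63 to 21.8 RPKM between them. Without E11 the slope of Hes5 was -0.30 (adjusted p = 0.0101) and that of Jag2 0.26 (adjusted p = 0.00323), and all 8 falling members kept their calls. Part of the exon length of Notch1 (7.50%), Notch3 (6.03%), Dll1 (20.5%) and Hes5 (31.8%) is shared with genes on the opposite strand. Whether counting used strand is not given in the sources used here, so reads there cannot be assigned to one strand. Of those genes only 0610009E02Rik, opposite Notch1, was analysed here, and it was at 60.8, 39.6, 35.1, 36.3, 22.1 and 9.37 RPKM over the 6 stages.

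The rest of the pathway was read from a list of 67 further genes, of which 61 were tested over the stages, with 14 rising (23.0%) and 25 falling (41.0%), against 19.6% and 25.5% of all genes. Of 5 other receptors and ligands, Dlk2 rose (2.03 RPKM at E11, 40.9 RPKM at E18), as did the neuronal surface protein Dner and the endothelial ligand Dll4, while the non-canonical ligand Dlk1 fell (22.5 RPKM at E11, 0.894 RPKM at E18). Dll4 was at 1.21, 1.31, 1.21, 1.40, 1.89 and 2.08 RPKM, with a slope of 0.08 (adjusted p = 0.0399). Of 18 tested genes that ready ligand or receptor, 6 rose and 7 fell. The E3 ligases that drive ligand uptake parted, since Mib1 fell (9.48 RPKM at E11, 3.62 RPKM at E18) and Mib2 rose (11.6 RPKM at E11, 31.0 RPKM at E18). The Fringe glycosyltransferases also parted, with Lfng at 18.3, 16.2, 15.5, 17.0, 10.5 and 8.25 RPKM (slope -0.15, adjusted p = 0.00428) and Rfng rising (24.6 RPKM at E11, 64.1 RPKM at E18). Mfng, named here after its values were seen, fell (49.5 RPKM at E11, 4.15 RPKM at E18, slope -0.43, adjusted p = 0.00318).

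In the nucleus, 7 of 17 genes of a joint list of the transcription complex and co-repressors fell and 1 rose. The falling genes were Hdac1, Tle1, Ctbp1, Snw1, Maml1, Maml3 and Rbpj, and the rising gene was Tle2. Rbpj, the DNA-binding partner of the Notch intracellular domain, was at 5.13, 4.04, 3.53, 4.32, 4.22 and 1.23 RPKM (slope -0.16, adjusted p = 0.0395). Of 9 tested negative regulators, 3 rose and 3 fell. Nrarp, a Notch-induced inhibitor, fell (44.9 RPKM at E11, 13.6 RPKM at E18), as did Numb, an antagonist of Notch receptors, while Dtx1 rose (6.50 RPKM at E11, 37.9 RPKM at E18). Of 6 other Hes, Hey and related genes tested, Hes6, Id4 and Nepro fell and Bcl6 rose. Hes6, which opposes Hes1, was at 111, 93.6, 88.7, 99.7, 75.3 and 49.6 RPKM (slope -0.14, adjusted p = 0.00738). Of 6 tested proneural genes, 4 fell. Neurog2, like Notch2, had its peak at E14, at 74.5, 110, 119, 123, 68.8 and 6.69 RPKM (slope -0.45, adjusted p = 0.0382).

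In neural stem cells, no Notch pathway gene passed the test after Pex7 knockdown. The percentage called over all 12482 genes tested was 0 (limma adjusted p under 0.05), with 184 genes at an unadjusted p under 0.05, and limma-voom on recovered reads called 0 with 116 at an unadjusted p under 0.05. The log2 changes of the 10 members ranged from -0.13 for Jag2 to 0.12 for Hey1. For 8 of the 10 members, both Pex7sh libraries lay between the 2 scramble libraries.

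Dll1, the highest member in these cells, was at 13.6 and 15.1 RPKM in Pex7sh cells, against 17.9 and 11.6 RPKM in scramble cells. Dll3 was at 8.88 and 9.10 RPKM in Pex7sh cells, against 12.9 and 6.30 RPKM in scramble cells. Jag1 was at 6.54 and 7.48 RPKM in Pex7sh cells, against 8.53 and 5.72 RPKM in scramble cells. In each of these 3 ligands, scramble library 1 was the highest and scramble library 2 the lowest. Jag2 was at 9.88 and 10.1 RPKM in Pex7sh cells, against 10.2 and 11.9 RPKM in scramble cells, and was the only member lower in scramble library 1 than in library 2. Its groups did not overlap, but the change of -0.13 (95% interval -0.38 to 0.12) did not pass the test (adjusted p = 1).

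Notch1 was at 9.34 and 9.46 RPKM in Pex7sh cells, against 12.0 and 7.52 RPKM in scramble cells. Notch2 was at 7.30 and 7.87 RPKM in Pex7sh cells, against 8.72 and 6.75 RPKM in scramble cells. Notch3 was at 10.1 and 10.8 RPKM in Pex7sh cells, against 10.8 and 9.03 RPKM in scramble cells. The receptors thus stood close to each other, unlike the early brain, where Notch1 was several times Notch2. Hes1 was at 10.4 and 9.50 RPKM in Pex7sh cells, against 12.0 and 7.11 RPKM in scramble cells. Hes5 was at 4.93 and 4.80 RPKM in Pex7sh cells, against 5.20 and 3.72 RPKM in scramble cells. Hes5 was therefore the lowest of the 10 members in the stem cells, with Hes5 at 0.472 to 0.505 times Hes1 in Pex7sh cells and 0.433 to 0.523 times Hes1 in scramble cells. Hey1 was at 10.8 and 11.0 RPKM in Pex7sh cells, against 10.3 and 9.57 RPKM in scramble cells, without overlap, and its change of 0.12 had a 95% interval of -0.08 to 0.32. Groups did not overlap for 2 of 10 members and for 22.5% of all genes tested.

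The intervals leave room for changes of moderate size: that of Hes1 ran from -0.50 to 0.69, that of Notch1 from -0.55 to 0.51 and that of Dll3 from -0.79 to 0.77 on the log2 scale. The direction of 8 of the 10 members turned with the scramble library left out. Without scramble library 1 the change of Dll3 was 0.45, and without scramble library 2 it was -0.48. Beside this, proliferation markers summed to 249 to 276 RPKM in Pex7sh cells and to 334 and 195 RPKM in scramble libraries 1 and 2. Radial glia markers summed to 1130 to 1150 RPKM in Pex7sh cells and to 1270 and 913 RPKM in scramble libraries 1 and 2, and oligodendrocyte lineage markers to 321 to 322 RPKM and to 428 and 216 RPKM. Pan-neuronal markers summed to 948 to 977 RPKM in Pex7sh cells and to 814 and 1070 RPKM in scramble libraries 1 and 2. Choroid plexus markers summed to 164 and 68.6 RPKM in Pex7sh libraries 1 and 2 and to 30.5 and 194 RPKM in scramble libraries 1 and 2. The part of these lists in the spread of the members was not tested. Of the 67 further pathway genes, 0 of 55 tested passed, with 1 at an unadjusted p under 0.05. Rbpj was at 2.26 and 2.32 RPKM in Pex7sh cells, against 2.43 and 2.21 RPKM in scramble cells.

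**Figure D2:**
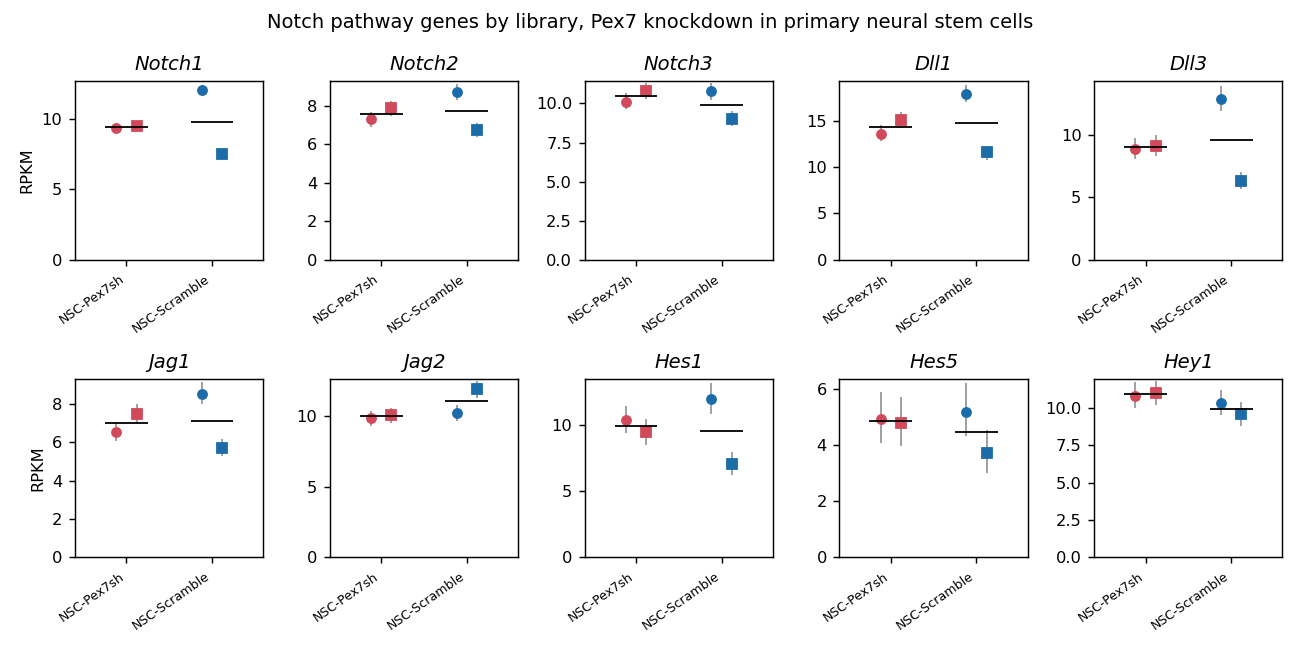
RPKM of the 10 genes in the 2 NSC-Pex7sh libraries (red) and the 2 NSC-Scramble libraries (blue), circles for library 1 and squares for library 2, with group means as lines and Poisson 95% intervals as grey bars. In 8 of the 10 panels both Pex7sh libraries lie between the scramble libraries.

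With PLAAT3-PEX11 overexpression in the first set, 6 of the 9 members tested rose and 0 fell: all 3 receptors, the ligand Jag1 and the targets Hes1 and Hes5. A rise passed the test for 16.3% of all 11623 genes tested and a fall for 13.2% (limma, adjusted p under 0.05). These are 1900 rising and 1538 falling genes, against 1327 and 1968 with upper-quartile scaling, where 5 members rose. The Delta ligands and Hey1 did not pass the test, and Jag2 was below the filter of a mean of 1 RPKM. The median log2 change of the 9 tested members was 0.65, against 0.06 over all genes tested.

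Jag1 had the largest change of the members. It was at 9.84 and 9.08 RPKM in PLA1, against 1.59 and 1.71 RPKM in Ctrl1. Both PLA1 libraries were several times above both Ctrl1 libraries. The mean was 9.46 ± 0.538 RPKM in PLA1 and 1.65 ± 0.0897 RPKM in Ctrl1 (SD, n = 2 each), a ratio of 5.74 (log2(RPKM + 1) change 1.98, SE 0.14, limma adjusted p = 0.000215). The other Jagged gene, Jag2, was at 0.676 and 0.640 RPKM in PLA1, against 0.456 and 0.587 RPKM in Ctrl1, and rested on 65 to 86 reads per library. Of the 2 Jagged genes, Jag1 was thus the higher one here, with Jag2 at 0.0687 to 0.0705 times Jag1 in PLA1 and 0.288 to 0.343 times in Ctrl1.

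The Delta ligands changed less. Dll1 was at 23.2 and 20.5 RPKM in PLA1, against 18.9 and 21.9 RPKM in Ctrl1, and the groups overlapped (log2 change 0.09, 95% interval -0.17 to 0.35, adjusted p = 0.554). Dll3 was at 45.5 and 42.8 RPKM in PLA1, against 39.4 and 35.9 RPKM in Ctrl1, without overlap (log2 change 0.23, 95% interval 0.02 to 0.43, adjusted p = 0.0888). Dll3 stood above Dll1 in this set, the reverse of the order in staged brain, with Dll1 at 0.478 to 0.509 times Dll3 in PLA1 and 0.480 to 0.610 times in Ctrl1.

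The receptors rose together. Notch1 was at 6.43 and 7.93 RPKM in PLA1, against 2.93 and 3.45 RPKM in Ctrl1, a ratio of 2.25 (log2 change 0.96, SE 0.15, adjusted p = 0.00471). Notch2 was at 6.62 and 6.06 RPKM in PLA1, against 3.24 and 4.15 RPKM in Ctrl1, a ratio of 1.71 (log2 change 0.65, SE 0.15, adjusted p = 0.0185). Notch3 was at 6.49 and 9.22 RPKM in PLA1, against 3.71 and 4.29 RPKM in Ctrl1, a ratio of 1.96 (log2 change 0.81, SE 0.18, adjusted p = 0.0147). No receptor's groups overlapped, and the receptor sum was 19.5 to 23.2 RPKM in PLA1 and 9.88 to 11.9 RPKM in Ctrl1. The calls for Notch2 and Notch3 were less firm. Notch2 lost its call without Ctrl1 library 1 (adjusted p = 0.132), PLA1 library 1 (0.0591) or PLA1 library 2 (0.0528), and Notch3 without Ctrl1 library 1 (0.0552) or PLA1 library 2 (0.058).

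The targets parted. Hes1 was at 19.8 and 17.4 RPKM in PLA1, against 7.27 and 9.99 RPKM in Ctrl1, a ratio of 2.16 (log2 change 1.04, SE 0.15, adjusted p = 0.00347). Hes5 was at 107 and 112 RPKM in PLA1, against 87.8 and 83.6 RPKM in Ctrl1, a ratio of 1.28 (log2 change 0.35, SE 0.07, adjusted p = 0.012). Hey1 was at 26.3 and 25.9 RPKM in PLA1, against 29.2 and 28.2 RPKM in Ctrl1 (log2 change -0.13, 95% interval -0.33 to 0.06, adjusted p = 0.26). Hes1 and Hes5 were thus higher in both PLA1 libraries, and Hey1 lower without passing the test. Hes5 lost its call without Ctrl1 library 2 (adjusted p = 0.0683) or PLA1 library 2 (0.0525). With no filter on low values the adjusted p was 0.0897 for Notch2, 0.0975 for Notch3, 0.0516 for Hes1 and 0.0547 for Hes5. Without the trend it was 0.0626 for Hes5, and with upper-quartile scaling 0.0627. Jag1 and Notch1 were the 2 members called under all 11 alternatives run for this comparison. Groups did not overlap for 9 of 10 members and for 69.3% of all genes tested.

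Markers moved with these members. All 10 proliferation markers rose, summing to 654 to 655 RPKM in PLA1 and 389 to 400 RPKM in Ctrl1. Radial glia markers summed to 283 to 286 RPKM in PLA1 and 250 to 263 RPKM in Ctrl1, with 4 of 10 rising and 1 falling. Pan-neuronal markers summed to 394 to 401 RPKM in PLA1 and 748 to 767 RPKM in Ctrl1, with 6 of 10 falling. Microglia markers summed to 191 to 208 RPKM in PLA1 and 436 to 469 RPKM in Ctrl1, with 8 of 9 tested falling. Astrocyte markers summed to 80.6 to 85.6 RPKM in PLA1 and 211 to 213 RPKM in Ctrl1, and of the 3 tested Apoe fell and Gja1 rose. Their part in the changes of the members was not tested. Markers of vessel cells, which also express Jag1, Notch1 and Notch3, were low in both groups, and their part was not tested either. The 10 endothelial markers summed to 0.948 to 1.59 RPKM in PLA1 and 2.02 to 2.06 RPKM in Ctrl1, and the 10 pericyte and smooth muscle markers to 0.966 to 2.03 RPKM and 3.02 to 3.32 RPKM, with Kcnj8 and Abcc9 at 0 in PLA1.

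Of the 67 further pathway genes, 53 were tested in the first set, with 9 rising (17.0%) and 4 falling (7.55%), against 16.3% and 13.2% of all genes. The share that rose was thus near that of all genes, and the genes named here are single results, not a change of the list. The rising genes included Lfng, the co-activator Maml1, the antagonist Numb, the Deltex family genes Dtx3 and Dtx3l, Id4 and the proneural gene Neurog1. Lfng, which modifies Notch receptors and alters their response to Jagged and Delta ligands, was at 3.78 and 4.43 RPKM in PLA1, against 1.23 and 2.09 RPKM in Ctrl1 (log2 change 0.96, adjusted p = 0.0127). Maml1 was at 6.31 and 8.24 RPKM in PLA1, against 3.25 and 4.26 RPKM in Ctrl1 (log2 change 0.80, adjusted p = 0.0149). Neurog1 was at 23.2 and 26.8 RPKM in PLA1, against 14.6 and 16.0 RPKM in Ctrl1 (log2 change 0.67, adjusted p = 0.00483). Both Hes1, a repressor of proneural genes, and the proneural gene Neurog1 were therefore higher in PLA1.

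The falling genes were Dner, the gamma-secretase subunits Aph1b and Psenen, and the co-repressor Tle4. Aph1b was at 13.4 and 13.2 RPKM in PLA1, against 19.1 and 18.5 RPKM in Ctrl1 (log2 change -0.47, adjusted p = 0.0115). Neurog2 was at 48.0 and 68.9 RPKM in PLA1, against 62.8 and 59.3 RPKM in Ctrl1, with overlapping groups (adjusted p = 0.703). Hes6 was at 309 and 335 RPKM in PLA1, against 304 and 312 RPKM in Ctrl1 (adjusted p = 0.521). Rbpj was low, at 1.21 and 1.46 RPKM in PLA1, against 1.3 and 1.29 RPKM in Ctrl1 (adjusted p = 0.93). Dll4 was at 0.273 and 0.622 RPKM in PLA1, against 0.165 and 0.210 RPKM in Ctrl1, below the filter.

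In the neuron set the pathway was largely low, and the 1 member that passed the test was Hes5, which fell with PLAAT3-PEX11 overexpression. Of the 5 members tested, 1 fell and 0 rose, while a fall passed the test for 0.501% of all 11179 genes tested and a rise for 0.376%. Hes5 was at 37.5 and 45.5 RPKM in Neuron-PLA, against 73.5 and 67.4 RPKM in Neuron-ctrl. Both Neuron-PLA libraries lay below both Neuron-ctrl libraries. The mean was 41.5 ± 5.66 RPKM in Neuron-PLA and 70.5 ± 4.27 RPKM in Neuron-ctrl (SD, n = 2 each), a ratio of 0.589 (log2 change -0.76, SE 0.11, limma adjusted p = 0.039). The direction held under all 11 alternatives, with log2 changes of -0.89 to -0.62, but the call did not. Without Neuron-ctrl library 1, Neuron-ctrl library 2 or Neuron-PLA library 1 the adjusted p was 0.182, 0.121 or 0.115. With no filter it was 0.247 and without the trend 0.196.

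The other target and the ligands above the filter did not pass. Jag2 was at 4.07 and 4.03 RPKM in Neuron-PLA, against 3.08 and 2.85 RPKM in Neuron-ctrl, without overlap (log2 change 0.35, 95% interval -0.04 to 0.74, adjusted p = 0.33). Dll3 was at 10.2 and 13.1 RPKM in Neuron-PLA, against 11.1 and 6.86 RPKM in Neuron-ctrl (adjusted p = 0.43). Dll1 was at 7.27 and 6.29 RPKM in Neuron-PLA, against 6.90 and 4.71 RPKM in Neuron-ctrl (adjusted p = 0.612). For both Delta ligands the groups overlapped, and Neuron-ctrl library 2 was the lowest of the 4. Hey1 was at 8.44 and 9.51 RPKM in Neuron-PLA, against 10.2 and 9.80 RPKM in Neuron-ctrl (log2 change -0.14, 95% interval -0.45 to 0.16, adjusted p = 0.613). Jag2 exceeded Jag1 in this set, 6.15 to 9.55 times in Neuron-PLA and 3.54 to 6.46 times in Neuron-ctrl, the order also seen in staged brain from E12 on.

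The receptors, Jag1 and Hes1 had table means below 1 RPKM and were not tested. Notch1 was at 0.813 and 0.740 RPKM in Neuron-PLA, against 0.852 and 0.825 RPKM in Neuron-ctrl. Notch2 was at 0.397 and 0.446 RPKM in Neuron-PLA, against 0.564 and 0.576 RPKM in Neuron-ctrl. Notch3 was at 1.29 and 0.620 RPKM in Neuron-PLA, against 0.835 and 1.00 RPKM in Neuron-ctrl. The 3 receptors together summed to 1.81 to 2.50 RPKM in Neuron-PLA and 2.25 to 2.40 RPKM in Neuron-ctrl, so Hes5 was high beside low receptor transcripts. Jag1 was at 0.662 and 0.421 RPKM in Neuron-PLA, against 0.476 and 0.806 RPKM in Neuron-ctrl. Hes1 was at 1.66 and 0.314 RPKM in Neuron-PLA, against 1.08 and 0.520 RPKM in Neuron-ctrl, on 18 to 71 reads per library. Hes5 was 22.6 to 145 times Hes1 in Neuron-PLA and 68.3 to 130 times in Neuron-ctrl, where it was 5.41 to 6.43 times in PLA1 and 8.38 to 12.1 times in Ctrl1. Groups did not overlap for 5 of 10 members and for 5593 of all 11179 genes tested.

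Several marker lists were lower beside Hes5. Radial glia markers summed to 169 to 194 RPKM in Neuron-PLA and 289 to 299 RPKM in Neuron-ctrl, with Fabp7 passing the test among 9 tested. Astrocyte markers summed to 111 to 136 RPKM in Neuron-PLA and 207 to 220 RPKM in Neuron-ctrl, and microglia markers to 74.3 to 82.9 RPKM and 129 to 133 RPKM. Of 4 astrocyte markers tested, Apoe alone passed as a fall, and 1 of the 4 had a positive change. Of 9 microglia markers tested, 2 passed as falls, C1qb and Tmem119. Endothelial markers summed to 2.16 to 2.65 RPKM in Neuron-PLA and 23.7 to 24.6 RPKM in Neuron-ctrl, with Cdh5 and Tek at 0 in both Neuron-PLA libraries, and pericyte and smooth muscle markers to 3.87 to 5.60 RPKM and 12.8 to 14.2 RPKM. Only 2 markers of each of these lists were tested, and 1 of each passed as a fall, Cldn5 and Rgs5. Interneuron and ventral forebrain markers summed to 63.7 to 65.5 RPKM in Neuron-PLA and 119 RPKM in both Neuron-ctrl libraries, with 5 of 6 tested falling. Proliferation markers summed to 58.3 to 61.5 RPKM in Neuron-PLA and 75.2 to 82.4 RPKM in Neuron-ctrl, with 0 of 10 passing. The part of these lists in the fall of Hes5 was not tested.

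Of the 67 further pathway genes, 0 of 47 tested passed in the neuron set, with 5 at an unadjusted p under 0.05. Hes6 was at 219 and 201 RPKM in Neuron-PLA, against 229 and 222 RPKM in Neuron-ctrl (adjusted p = 0.474). Neurog2 was at 2.84 and 1.93 RPKM in Neuron-PLA, against 1.49 and 1.12 RPKM in Neuron-ctrl (adjusted p = 0.282). Rbpj, Lfng and Dll4 were below the filter. Rbpj was at 0.612 and 1.02 RPKM in Neuron-PLA, against 0.772 and 1.00 RPKM in Neuron-ctrl, Lfng at 0.190 and 0.639 RPKM, against 0.768 and 0.680 RPKM, and Dll4 at 0 and 0.194 RPKM, against 0.441 and 0.119 RPKM.

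**Figure D3:**
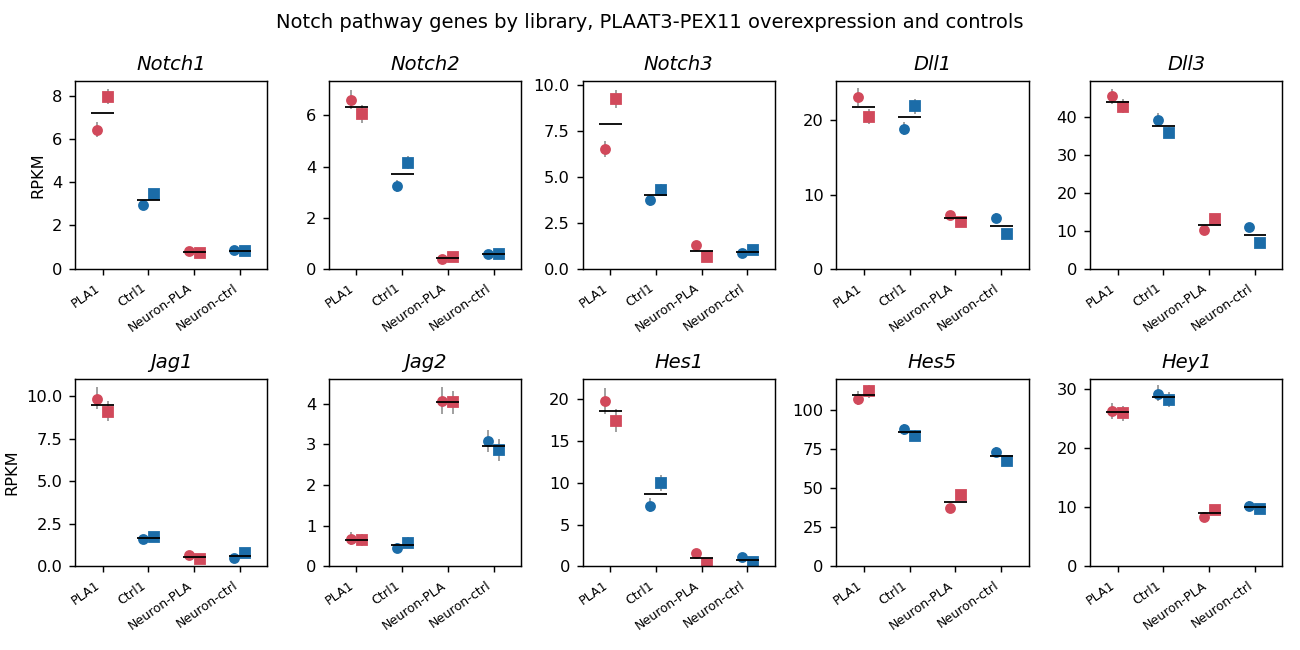
RPKM of the 10 genes in PLA1, Ctrl1, Neuron-PLA and Neuron-ctrl, overexpression in red and control in blue, circles for library 1 and squares for library 2, with group means as lines and Poisson 95% intervals as grey bars. Jag1 stands at 9.08 and 9.84 RPKM in PLA1 and under 2 RPKM elsewhere, and Hes5 is higher in PLA1 than Ctrl1 but lower in Neuron-PLA than Neuron-ctrl.

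Hes5 was the member whose overexpression effect was measured above the filter in both sets and differed between them. The test was the PLA1 minus Ctrl1 change less the Neuron-PLA minus Neuron-ctrl change, each taken within its own table. This difference was positive and called for 3 of the 10 members and negative for 0, while 6.19% of all 11705 genes tested were called positive and 5.48% negative. Hes5 differed by 1.11 (SE 0.14, adjusted p = 0.00129), with a rise in the first set and a fall in the neuron set. Jag1 and Notch1 were under 1 RPKM in the neuron libraries and entered this test through their levels in the first set, so their differences largely restate the first-set rise and are no measure of a response in the neuron set. Jag1 differed by 2.07 (SE 0.25, adjusted p = 0.00118). Notch1 differed by 1.01 (SE 0.24, adjusted p = 0.0237), a call that was lost in 8 of 15 alternatives. Its adjusted p over them ran from 0.0126 to 0.117, and it was lost with a pseudocount of 0.1 (0.0549), with no filter (0.0766), and without either Ctrl1 library (0.117 and 0.0607), either Neuron-ctrl library (0.054 and 0.055), PLA1 library 2 (0.0886) or Neuron-PLA library 2 (0.0518).

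For the other members the difference did not pass. It was 0.79 for Notch2 (95% interval 0.26 to 1.33, adjusted p = 0.0608), 0.80 for Notch3 (0.11 to 1.49, adjusted p = 0.126) and 0.96 for Hes1 (0.00 to 1.92, adjusted p = 0.181). Notch2 was called without the trend (adjusted p = 0.0335) and with limma-voom (0.044). Hes1 was called without Neuron-PLA library 1, at 1.47 (adjusted p = 0.0245), and was at 0.46 without Neuron-PLA library 2 (0.394). These 3 genes, like Jag1 and Notch1, are low in the neuron set, and the added pseudocount of 1 RPKM compresses changes of low genes there. Dll1 (-0.12), Dll3 (-0.14), Jag2 (-0.22) and Hey1 (0.01) had differences nearer to 0. Of the further pathway genes, 5 of 54 tested (9.26%) were called positive (Lfng, Mfng, Id4, Dtx3 and Dtx3l) and 1 (1.85%) negative (Rfng), against 6.19% and 5.48% of all genes. Lfng (1.26, adjusted p = 0.0319) and Dtx3l were under 1 RPKM in every neuron-set library. Like Jag1, they entered through the first set, so their differences largely restate the first-set rise. Of the Fringe genes above the filter in both sets, Mfng was at 0.69 (adjusted p = 0.00717) and Rfng at -0.56 (adjusted p = 0.0376). The sets also differ in their markers and in whatever the labels do not state, and these cannot be told apart from the set.

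**Figure D4:**
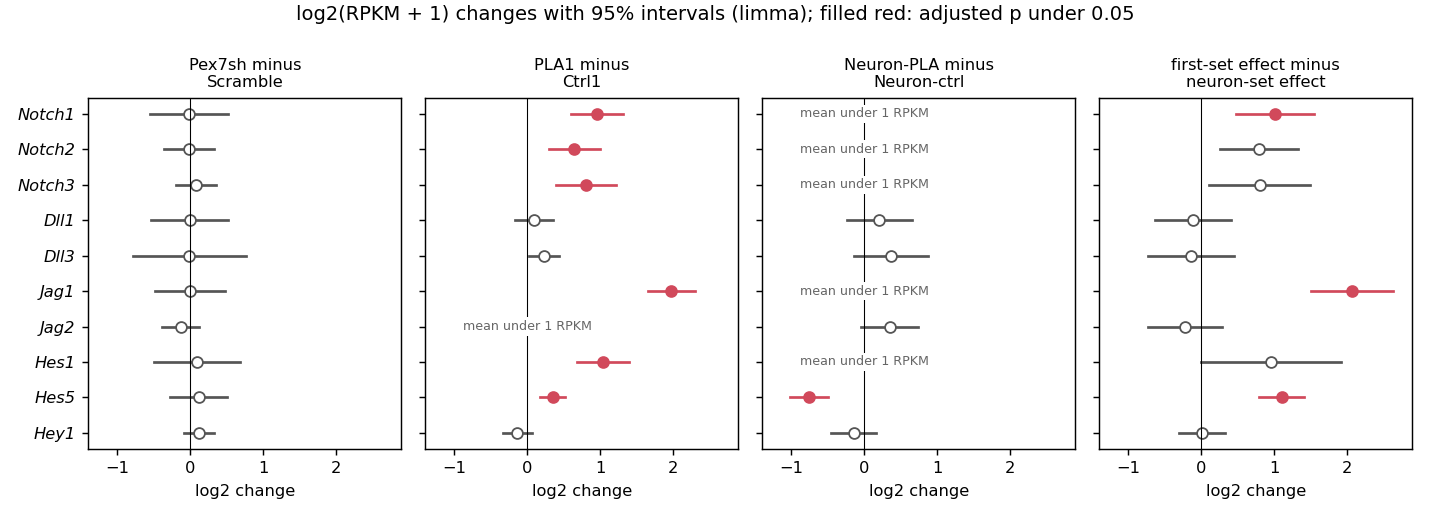
Change in log2(RPKM + 1) with 95% intervals for each gene in the 3 perturbations and for the difference between the overexpression sets, filled red where the adjusted p is under 0.05. The Pex7sh changes lie within -0.13 and 0.12, the PLA1 changes reach 1.98 for Jag1, and Hes5 is at 0.35 in the first set and -0.76 in the neuron set.

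Across the 6 groups of 2 libraries, whose tables were normalised separately, the members fell into different orders. Notch1 and Notch2 were highest in the stem cells, then PLA1, then Ctrl1, and lowest in the neuron set. The scramble and Pex7sh ranges overlapped for both genes, and the wide scramble range of Notch1 also overlapped its PLA1 range. Notch3 kept the same order of cell sources, its scramble range overlapped the PLA1 range, and its neuron groups overlapped each other. Hes5 ran the other way round for the stem cells, with PLA1 highest, then Ctrl1, Neuron-ctrl, Neuron-PLA and the stem cells, and again only the 2 stem cell groups overlapped. Jag2 was highest in the stem cells and lowest in the first set, and Jag1 was highest in PLA1 and lowest in the neuron set. Hey1 was highest in Ctrl1 and PLA1, and its other 4 groups lay between 8.44 and 11.0 RPKM.

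The genes whose pattern was most like that of Hes5 and Dll1 were ranked by Pearson's r over the 18 libraries, on log2 values centred within each table, among the 7865 genes that averaged 5 RPKM or more. For Hes5 these were Ptges3 (r = 0.958), Slc25a5 (0.946), Lrrc42 (0.946), Rpp30 (0.944) and Rcn1 (0.943). For Dll1 they were Asf1a (0.971), Ddb1 (0.969), Rfwd3 (0.968), Zfp422 (0.967) and Acss1 (0.965). Among the members, Dll1 was most like Dll3 (0.95), Hey1 (0.914), Hes1 (0.889) and Notch1 (0.874), and Hes5 was most like Hey1 (0.859), while Jag2 ran opposite to Dll1 (-0.889) and Hes5 (-0.905). The points share libraries, depth and the stage trend, and these values are a description with no test.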

How the data were processed

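Total RNA (Trizol, 2 ug) from 18 mouse libraries was sequenced, per the labels' protocols. The submitters' processing notes name STAR 2.7.9a, HTSeq 0.6.0 and mm10. Deposited values were RPKM, a unit read from the values because no header names it. Multiplied by GENCODE M21 merged exon length and a library total, 97.5% to 97.8% of nonzero RPKM values gave whole reads (tolerance 0.01), which supply the depths and Poisson 95% intervals, covering counting error only.

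The test was limma 3.58.1 (R 4.3.3, mean-variance trend) on log2(RPKM + 1) over genes with a table mean of at least 1 RPKM, two-sided, with Benjamini-Hochberg adjustment over all genes tested and a threshold of 0.05. It understates changes of low genes. Alternatives were a pseudocount of 0.1, no filter, median-ratio and upper-quartile scaling, no trend, limma-voom on the recovered reads, stage rank, a replicate block and leaving out each library. Fits were also run on simulated data, whose outcome is not given here and is not used to judge the calls. The planned count models were not used, because the unit was RPKM. The 10 genes were named in full, with up to 4 called genes per further pathway list and comparison plus Dll4, Rbpj, Lfng, Neurog2 and Hes6. Some items covered by this rule are not reported here. Genes, lists and motifs were chosen with earlier results of these data known. Promoters are RefSeq's (GRCm38.p6), read with Python 3.11.15.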

Additional observations from a re-analysis of the deposited data

Results flagged for a closer look

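By limma's test of the difference of the effects, the change with PLAAT3-PEX11 overexpression in the first set differed from that in the neuron set for Hes5, and, with levels too low to be tested in the neuron set alone, for Jag1 and Notch1. The difference was 2.07 on the log2 scale for Jag1 (adjusted p = 0.00118), where both PLA1 libraries were above both Ctrl1 libraries and the neuron groups overlapped below 1 RPKM. It was 1.11 for Hes5 (adjusted p = 0.00129), where both PLA1 libraries were above both Ctrl1 libraries and both Neuron-PLA libraries below both Neuron-ctrl libraries. It was 1.01 for Notch1 (adjusted p = 0.0237), where both PLA1 libraries were above both Ctrl1 libraries and the neuron libraries were all under 1 RPKM with overlapping counting intervals. Jag1 and Notch1 passed the filter through the first set, so their differences largely restate the first-set rise. Jag1 and Hes5 were called under all 15 alternatives run for this difference. The first set had 654 to 655 RPKM of proliferation markers in PLA1 and 389 to 400 RPKM in Ctrl1, against 58.3 to 61.5 RPKM in Neuron-PLA and 75.2 to 82.4 RPKM in Neuron-ctrl. The part of this in the differences was not tested.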

How the results depend on the processing

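Directions over the stages held under all 13 alternatives, except Notch2 (-0.21 to 0.027 per day when 1 stage was left out). Leaving out 1 stage gave 2537 to 5485 genes called, lowest without E18. After Pex7 knockdown the replicate block called 1 gene, and limma-voom put Dll3 at 0.009. Leaving out 1 scramble library moved Notch1 from -0.32 to 0.29, Notch2 from -0.18 to 0.15, Notch3 from -0.041 to 0.19, Dll1 from -0.30 to 0.29, Dll3 from -0.48 to 0.45, Hes1 from -0.25 to 0.43 and Hes5 from -0.081 to 0.31. In the first set, no filter left 2 rising members and 1177 called genes, leaving out 1 library gave 3 to 5 rising members and 1575 to 3294 called genes (fewest members without PLA1 library 2, fewest genes without Ctrl1 library 1), and Dll1 was at -0.009 with upper-quartile scaling and -0.008 to 0.20 with 1 library left out. In the neuron set, Hes5 was not called with no filter, no trend or the replicate block (0 members, adjusted p = 0.247, 0.196 and 0.0532). These settings called 0, 4 and 54 genes, limma-voom called 339, and leaving out 1 library gave 7 to 163 genes, 0 to 1 falling members, and Dll1 at -0.025 to 0.44. For the difference between sets, no filter called 761 genes, and leaving out 1 library 636 to 1218. Dll1 ran from -0.35 to 0.12, Dll3 from -0.45 to 0.17 and Hey1 from -0.068 to 0.088, with Hey1 at -0.047 and -0.063 under median-ratio and upper-quartile scaling. Where an alternative changed a value, the cause was not tested. With no filter more genes are tested, and without a library fewer samples are. The block changed no other member's call. Same-numbered libraries correlated at 0.01 (knockdown), 0.099 (first set) and 0.047 (neuron set), so the numbers were not taken as pairs. When a group keeps 1 library, it is assumed to vary like the others. Groups of 2 leave wide intervals, and values under 1 RPKM rest on few reads.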
